A study of Mus musculus with 2 samples.

Results

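Far intergenic shared peaks are stretches of open chromatin that both DNase-seq libraries of mouse calf muscle listed. They lie between genes and far from the starts of coding genes. They were chosen by position. A shared peak is a merged region where peaks of both libraries overlapped by at least 1 bp, and it was kept if its midpoint lay outside every annotated gene body and more than 50 kb from the nearest start of a protein-coding transcript. This left 4793 of 49160 shared peaks (9.75%, 95% exact interval 9.49 to 10.02). No distance to the other end of a gene was required, so a member can lie close to one. The member nearest to the limit lay 50027 bp from a start and the closest excluded peak 49994 bp. A further 4461 shared peaks were as far from a coding start but inside a gene body, 1326 of them inside bodies of non-coding genes only.

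DNase-seq cuts accessible DNA in isolated nuclei with the nuclease DNase I and sequences the cut ends. The tissue was the gastrocnemius of female B6CASTF1/J mice, hybrids between C57BL/6J and CAST/EiJ, aged 2 months and with no treatment named. There were 2 libraries in 1 group, so no conditions could be compared. The labels give the libraries separate biosamples and describe different females, but carry the same donor identifier. Whether they are separate animals is not settled, so each SD here may be partly technical. Replicate 1 had 66984 peaks and 153010 footprints, and replicate 2 had 258342 peaks and 338761 footprints. Sequencing depth is not given in the sources used here, and intervals cover counting error only. As a check of the tissue, promoter peaks in both libraries were seen at 5 of 5 skeletal muscle markers, 0 of 3 liver markers, 0 of 3 blood markers and 2 of 3 neuronal markers.

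Accessible DNA far from genes commonly marks enhancers, which bind transcription factors and act on promoters over a distance, and insulators, where CTCF binds and anchors chromatin loops. In muscle, MYOD and MYOG bind the E-box, MEF2 factors bind an A/T-rich site, and the FOS and JUN proteins bind the AP-1 site. A footprint is a short stretch within an open region that is cut less than its surroundings, as happens where a protein covers the DNA.

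The central windows of 150 bases below show the leading members: the strongest by mean rank over both libraries, the best-ranked with CTCF, E-box and AP-1 sites, a MEF2 member, and the strongest among the farthest. They are read from the C57BL/6J reference (RefSeq, mm10, plus strand, 5′ to 3′), not from the hybrid animals. Capitals mark the named motif, or, in the first and last line, bases inside footprints of both libraries. The MEF2 line, nearest Pced1b, ranks below the best MEF2 member, which is nearest Zfp608 and is given by its values further on.
nearest Chd2, chr7:73595261-73595410: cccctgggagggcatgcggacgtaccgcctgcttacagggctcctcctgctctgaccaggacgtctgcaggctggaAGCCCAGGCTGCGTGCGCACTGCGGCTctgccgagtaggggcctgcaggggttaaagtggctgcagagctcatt
nearest Gm15319, CTCF, chr8:20424756-20424905: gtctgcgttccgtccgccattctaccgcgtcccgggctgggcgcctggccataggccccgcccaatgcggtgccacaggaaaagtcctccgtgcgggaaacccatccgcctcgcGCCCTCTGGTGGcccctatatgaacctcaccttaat
nearest Cdkn2aipnl, E-box, chr11:51916136-51916285: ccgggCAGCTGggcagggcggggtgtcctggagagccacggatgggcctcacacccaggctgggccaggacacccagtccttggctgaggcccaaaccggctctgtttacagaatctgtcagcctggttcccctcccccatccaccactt
nearest Atp23, AP-1, chr10:126511636-126511785: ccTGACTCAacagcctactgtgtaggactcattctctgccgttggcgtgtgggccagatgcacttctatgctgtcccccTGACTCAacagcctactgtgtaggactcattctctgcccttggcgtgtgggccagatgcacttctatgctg
nearest Pced1b, MEF2, chr15:97170171-97170320: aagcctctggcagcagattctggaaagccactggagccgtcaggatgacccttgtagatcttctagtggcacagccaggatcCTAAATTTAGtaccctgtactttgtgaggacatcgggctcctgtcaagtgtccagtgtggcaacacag
nearest Cdh20, chr1:102628171-102628320: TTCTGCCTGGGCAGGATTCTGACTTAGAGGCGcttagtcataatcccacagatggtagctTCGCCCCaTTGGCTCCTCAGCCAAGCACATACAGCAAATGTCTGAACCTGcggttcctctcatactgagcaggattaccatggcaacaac
The Chd2 window has 27 bases in footprints of both libraries, and the Cdh20 window has 81. The CTCF site reads on the minus strand, and a footprint touched it in replicate 2 but not in replicate 1. The E-box lay near the window's edge and the MEF2 site near its centre, and footprints of both libraries touched each of these sites. The AP-1 window holds its site in a pair of copies 77 bases apart. Of the 73 bases that can be compared between the copies, 72 are identical.

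Far intergenic DNA was sparsely open. It made up 36.1% of the genome but held 9.75% of shared peaks, 0.270 times its share, at 5.02 peaks per Mb. The genome counted for these densities includes the Y chromosome, with 68.1 Mb of far intergenic DNA and 7 members, although the animals are labelled female. Intergenic DNA from 1 to 50 kb of a coding start, called near intergenic here, held 15.1 peaks per Mb, introns 14.5, exons 32.3 and promoters, within 1 kb of a coding start, 287.4. Members lay at a median of 118.4 kb from a coding start (quartiles 74.9 and 223.9 kb), and the farthest lay 2464 kb away. Among all peaks of one library, the far intergenic share was 10.8% in replicate 1 and 18.2% in replicate 2, and it was 5.81% of the peaks shared by the stronger part of each list.

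Density fell with distance within the far zone as well. It was 10.7 peaks per Mb at 50 to 100 kb (2034 members), 5.90 at 100 to 250 kb (1732), 3.11 at 250 to 500 kb (717) and 1.28 beyond 500 kb (310). The share of members with a footprint in both libraries took the same order, at 80.6%, 77.4%, 73.6% and 54.5%. CTCF motifs were at 3.05%, 2.48%, 1.67% and 0.323% of members, the last being 1 member with an interval of 0.00817% to 1.78%. The E-box share was nearly level, at 23.5%, 25.2%, 23.7% and 19.4%, with overlapping intervals. Repeat sequence moved with these values: windows at least 50% repeat-masked made up 3.93%, 4.50%, 9.90% and 25.8% of members, and its part in them was not tested.

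**Figure D1:**
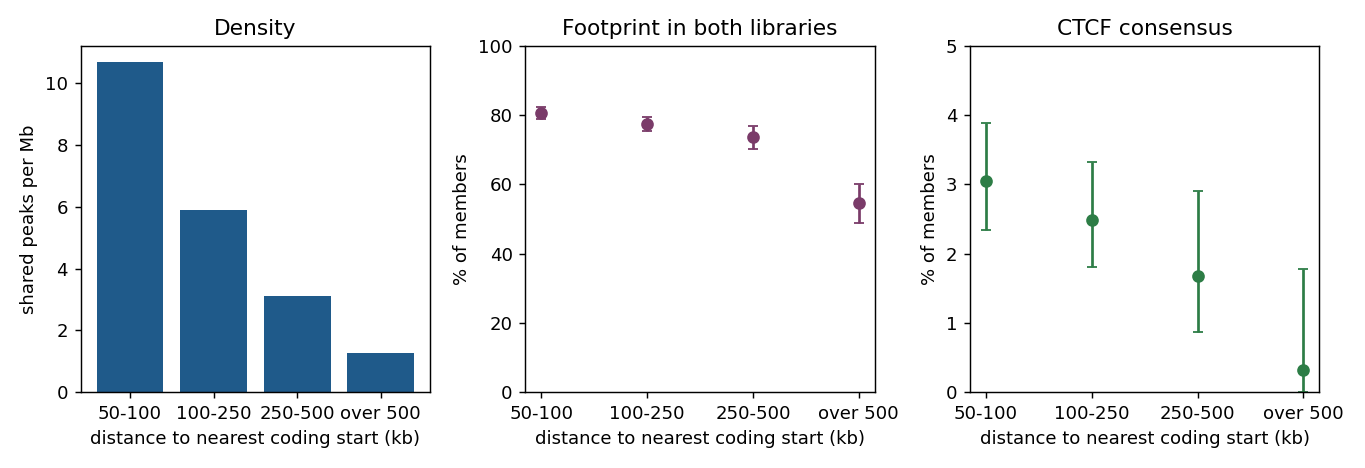
Density of far intergenic shared peaks per Mb of far intergenic DNA (left), share with a footprint in both libraries (middle) and share with the CTCF consensus (right), by distance to the nearest coding start in kb. Points carry 95% exact intervals. Density stands at 10.7 per Mb at 50 to 100 kb and 1.28 beyond 500 kb, and the footprint share at 80.6% and 54.5%.

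Chromosomes differed in density. Chromosome 13 had 7.96 members per Mb of far intergenic DNA and chromosome 17 had 7.76, while chromosome 14 had 3.79 and the X chromosome 2.48 (187 members). On the X, median signal percentiles were 22.2 in replicate 1 and 68.5 in replicate 2, and 57.8% of members had a footprint in both libraries (50.3 to 64.9). The Y chromosome held 7 members, although the animals are labelled female. Their signal was low, at 0.111 to 0.275 in replicate 1 and 0.0672 to 0.370 in replicate 2, and 4 of the 7 windows were at least 50% masked. In the complete lists, 50 peaks of replicate 1 (0.0746%) and 108 of replicate 2 (0.0418%) lay on the Y.

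The authors' signal had a lower median at far intergenic peaks than at near intergenic, intron and promoter peaks. Exon peaks were above far peaks in replicate 1, at a median of 0.784, but nearly level in replicate 2, at 1.183 against 1.177. Its median was 0.621 in replicate 1 and 1.18 in replicate 2 at far peaks, against 0.814 and 1.45 at near intergenic peaks and 1.60 and 3.24 at promoters. The scale of this signal is not stated, so each value was also ranked within its own library. Far peaks lay at a median percentile of 41.1 in replicate 1 and 84.6 in replicate 2, near intergenic peaks at 54.8 and 87.6, and promoters at 79.3 and 94.6. The order far, near, promoter held in both libraries. All far peaks of a library, shared or not, lay lower, at medians of 28.2 in replicate 1 and 36.5 in replicate 2. In replicate 1, 2.86% of far peaks were in the 10% of highest signal of its list, against 5.46% of near intergenic and 29.2% of promoter peaks. Over the 4793 members the libraries' signals had a Spearman correlation of 0.842, given as a description, since the members share libraries and are not replicates.

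**Figure D2:**
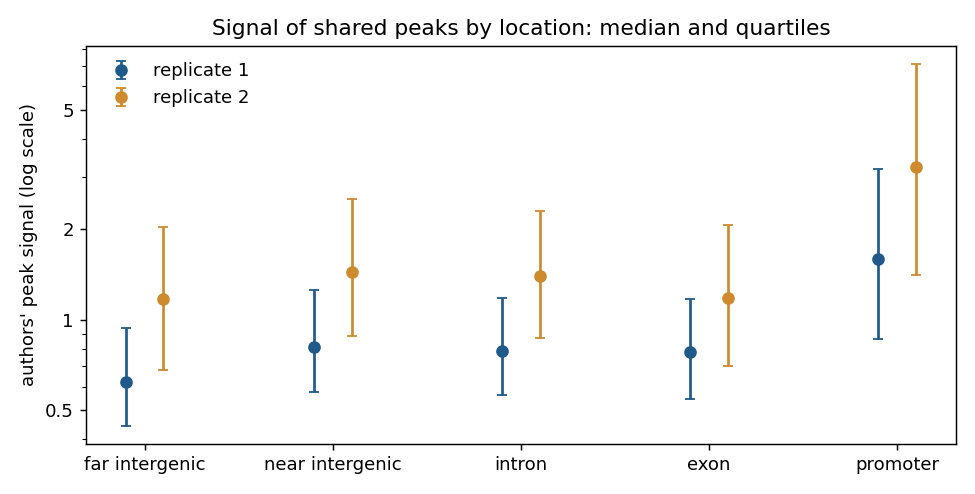
Authors' peak signal (log scale) of shared peaks by location in replicate 1 and replicate 2. Points are medians and bars run from the lower to the upper quartile. Far intergenic peaks have the lowest median in replicate 1, at 0.621, and in replicate 2 they are nearly level with exon peaks, at 1.177 and 1.183.

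Far peaks were also slightly narrower and less G/C-rich. Their median width was 228 bp and median G/C content 54.0%, against 240 bp and 56.0% for near intergenic peaks and 280 bp and 66.0% for promoters. The ratio of observed to expected CpG was 0.232 in far peaks, 0.268 in near intergenic peaks and 0.786 in promoters. Repeats covered 44.1% of far intergenic DNA, against 36.4% of the genome, but averaged 10.1% of the members' central windows. A window at least 50% masked was seen in 309 members (6.45%, 5.77 to 7.18), against 3.71% of near intergenic and 2.11% of all shared peaks. These 309 members were weak, with median percentiles of 13.9 and 40.4 in replicates 1 and 2, against 42.6 and 85.5 in the other 4484. They held no CTCF consensus, and 41.1% had a footprint in both libraries, against 79.2%.

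Not all members were far from every kind of gene. Within 1 kb of the start of a non-coding gene lay 235 of them, 139 at a lincRNA, 29 at a processed pseudogene and 9 at a miRNA gene. These 235 held the SP/KLF motif, a G/C-rich box common in promoters, in 11.1% of windows, against 2.28% of the remaining 4558. Their median percentiles were 51.4 in replicate 1 and 89.98 in replicate 2, against 40.6 and 84.4. They are members by the rule, which measured distance to coding starts.

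Each library's own list showed how often a far peak recurred in the other library. Of 7240 far intergenic peaks of replicate 1, 67.4% overlapped a peak of replicate 2 (66.3 to 68.4), against 72.1% of near intergenic and 88.3% of promoter peaks. Of 47150 far intergenic peaks of replicate 2, 10.46% overlapped a peak of replicate 1, against 16.4% and 58.7%. Within several quintiles of signal the order turned. In the lowest signal quintile of replicate 1, 27.4% of far peaks recurred (25.8 to 29.1), against 20.9% of near ones (19.4 to 22.5). In the middle quintile the shares were 96.9% (95.8 to 97.8) and 92.3% (91.1 to 93.4). In the top quintile of replicate 2 they were 77.0% (75.7 to 78.3) and 69.3% (68.3 to 70.4). In the lower 3 quintiles of replicate 2, however, 0.828%, 1.44% and 3.22% of far peaks recurred, against 1.20%, 1.87% and 3.72% of near ones.

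Of 16 consensus motifs sought on both strands of the central windows, 6 were more frequent in members than in 8577 peak-free windows 1 kb away, with intervals apart, and 2 were less frequent. Members had a higher median G/C content, 54.0% against 44.7% in windows 1 kb away. Its part in the ratios to flanking windows, above or below 1, was not tested. The E-box CAGCTG was the most common, in 1144 members (23.9%, 22.7 to 25.1), against 6.55% of flanking windows, a ratio of 3.64. Near intergenic peaks held it in 22.5%, intron peaks in 25.2%, promoters in 10.9% and all shared peaks in 19.2%. AP-1 (TGANTCA) was in 498 members (10.4%, 9.54 to 11.3), against 4.51% of flanks, 8.83% of near intergenic peaks, 2.33% of promoters and 6.45% of all shared peaks. Intron peaks held AP-1 in 9.31% (8.85 to 9.78), an interval that overlaps that of far peaks. Both motifs were more frequent in strong members: the E-box was in 27.9% of the strongest signal quartile against 17.9% of the weakest, and AP-1 in 12.2% against 6.76%. Both stood together in 137 members, and 167 members had at least 2 E-boxes. None of the 16 motifs was found in 2569 members. In all far peaks of replicate 2, most of which replicate 1 did not list, the E-box share was 13.6% and the AP-1 share 5.62%.

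CTCF sites were scarcer in far peaks than in near ones. They were found in 118 members (2.46%, 2.04 to 2.94), against 5.20% of near intergenic peaks (4.69 to 5.75), 0.598% of promoters and 2.17% of all shared peaks. Intron peaks held them about as often as far peaks, at 2.51% (2.27 to 2.77). The flanking windows held 5, or 0.0583%, so members had them 42.2 times as often. The 60 sites on the plus strand and 58 on the minus strand were spread thinly: neighbours on a chromosome lay a median of 13150 kb apart, and of 98 such pairs 22 pointed toward each other, 24 away and 52 the same way. Members with a CTCF site had median percentiles of 39.1 in replicate 1 and 83.1 in replicate 2, against 41.1 and 84.7 without one. CTCF and E-box sites met in 10 members. In all far peaks of one library the CTCF share was 1.66% in replicate 1 and 0.753% in replicate 2.

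The remaining motifs fell into groups by their factors. TEAD (CATTCCA), the site of the Hippo pathway's DNA-binding factors, was in 4.05% of members (3.51 to 4.64), against 2.93% of near intergenic peaks and 2.31% of flanks. The glucocorticoid response element (GNACA, 3 free bases, TGTNC) was in 60 members (1.25%), against 1.03% of near intergenic peaks and 0.210% of flanks, a ratio of 5.97. FOX (TGTTTAC), the forkhead site, was in 2.32%, against 1.53% of near intergenic peaks but 2.17% of flanks. Intron peaks held TEAD in 3.49% (3.20 to 3.79) and FOX in 2.15%, with intervals that overlap those of far peaks. Promoter-type motifs were rare: SP/KLF (GGGGCGG) was in 2.71% of members, against 5.29% of near intergenic peaks and 28.4% of promoters, and ETS (CCGGAAGT) in 0.230%, against 0.665% and 4.39%.

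Motifs of muscle and clock factors with A/T-rich letters were not more frequent than in the flanks. MEF2 was in 91 members (1.90%, 1.53 to 2.33), against 1.88% of near intergenic peaks, 1.5% of all shared peaks and 2.91% of flanks (2.57 to 3.29). The PAR bZIP site (TTANGTAA), bound by the clock output factors DBP, TEF and HLF, was in 0.855%, against 0.723% of near intergenic peaks and 1.49% of flanks. Base composition differs between the compared windows, at a median of 54.0% G/C in members and 44.7% in windows 1 kb away, and its part was not tested. RUNX (TGTGGTT), SRF's CArG box, ROR (ANTAGGTCA), NRF1 (GCGCATGCG) and NFI (TTGGC, 5 free bases, GCCAA) had intervals that overlapped those of the flanks.

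**Figure D3:**
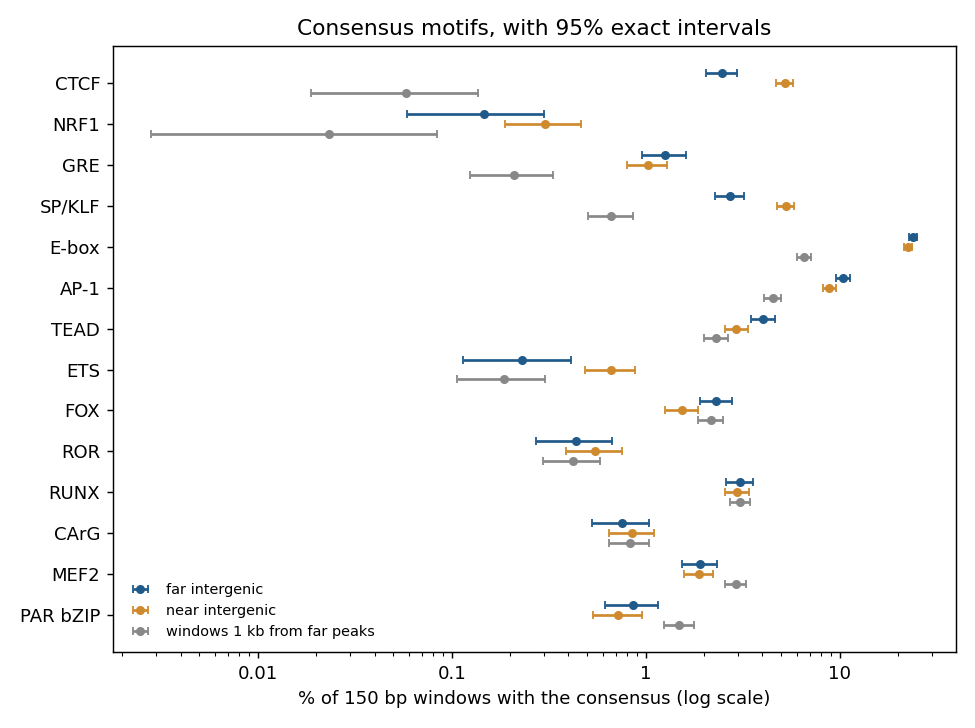
Share of 150 bp windows (log scale, with 95% exact intervals) holding each consensus motif named in the text, for far intergenic peaks, near intergenic peaks and peak-free windows 1 kb from far peaks. NFI, absent from the flanking windows, is not drawn. CTCF stands at 2.46% in far peaks and 5.20% in near ones, and the E-box at 23.9% and 22.5%.

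Most far peaks contained footprints. At least 1 was called in 83.2% of members in replicate 1 and 89.7% in replicate 2, with means of 1.97 and 2.44 per peak. Both libraries had one in 3678 members (76.7%, 75.5 to 77.9), against 80.5% of near intergenic peaks, 79.9% of intron peaks, 74.4% of exon peaks, 80.8% of promoters and 79.6% of all shared peaks. Over all far peaks of one library this share was 48.4% in replicate 1 and 7.66% in replicate 2. Counting footprints of replicate 1 only, 69.2% of far, 68.6% of near intergenic and 72.2% of promoter peaks in its lowest signal quintile of shared peaks had one. In the lowest quintile of replicate 2, 75.4%, 71.8% and 65.6% had a footprint of replicate 2, so the order of promoters differed between libraries. In the second signal quintile of shared peaks, 88.2% of far and 86.9% of near intergenic peaks of replicate 1 had a footprint, against 72.9% of promoters, and in replicate 2 these shares were 94.9%, 91.9% and 64.9%. The positions were less repeatable: 44.4% of footprints of replicate 1 in members touched one of replicate 2, against 19.8% after a move of 50 bp.

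Of the motifs with at least 60 sites in members, CTCF was the most often footprinted. Its 118 sites in members touched a footprint 61.9% of the time in replicate 1 and 72.0% in replicate 2, against 12.9% and 15.2% at the same positions moved by 50 bp, a ratio of 4.77 ± 0.0597 (SD, n = 2 libraries). In near intergenic peaks the ratio was 5.37 ± 1.42, so the peak groups did not differ beyond the spread between libraries. SP/KLF sites had a ratio of 2.37 ± 0.166 and E-boxes of 1.56 ± 0.0423 in far peaks. The E-box ratio was 1.43 ± 0.00308 in near intergenic peaks and 0.976 ± 0.0219 in promoters, so E-boxes were footprinted above moved positions between genes but not at promoters. AP-1 sites in far peaks had a ratio of 1.42 ± 0.221. For MEF2 the libraries differed, with ratios of 2.21 in replicate 1 and 0.874 in replicate 2. FOX sites were footprinted less often than moved positions in replicate 2 (8.04% against 25.5%, intervals apart), while the intervals overlapped in replicate 1 (10.7% against 16.5%). DNase I cuts some short sequences more readily than others, and the part of this in the ratios was not tested.

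**Figure D4:**
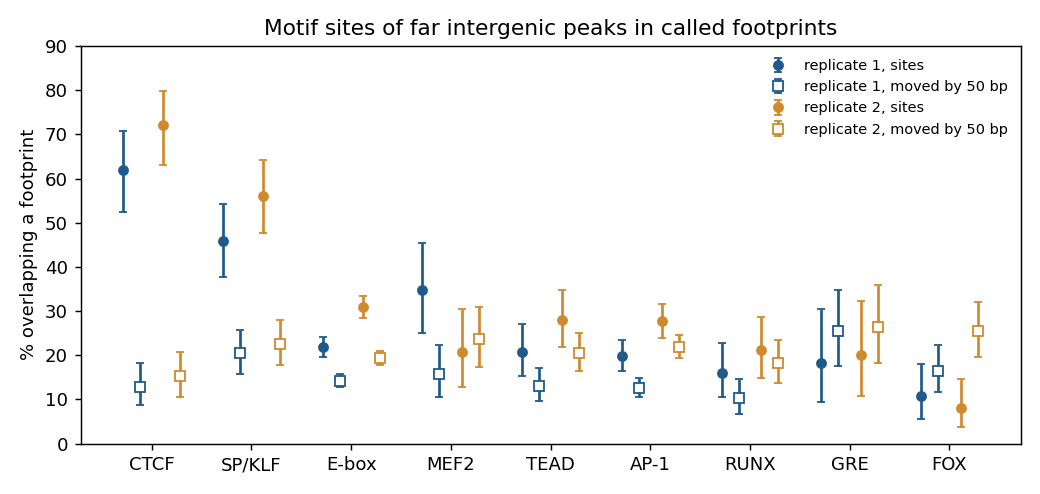
Share of motif sites in far intergenic peaks that touch a called footprint (filled circles) and of the same positions moved by 50 bp (open squares), in each library, with 95% exact intervals, for motifs named in the text with at least 60 sites. CTCF sites stand at 61.9% and 72.0%, against 12.9% and 15.2% after the move.

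The strongest members were among the highest peaks of their libraries, at percentiles of 97.5 to 99.6 in replicate 1 and 99.1 to 99.6 in replicate 2. The 10 with the best mean rank had signals of 6.07 to 11.4 in replicate 1 and 12.7 to 19.5 in replicate 2, and all 10 had footprints in both libraries. First was the peak at chr7:73595221-73595460, 53.6 kb from the start of Chd2, which encodes a chromatin remodeller, with signals of 7.82 and 19.1 in replicates 1 and 2. Second were chr12:86801281-86801720, between Lrrc74a and Irf2bpl (8.61 and 17.3), and, tied with it, the CTCF-bearing chr8:20424721-20424940 (7.14 and 19.5), 17 bp from the start of the non-coding 2610005L07Rik. The E-box member chr11:51916081-51916340, between Jade2 and Cdkn2aipnl, had 8.50 and 16.5. The AP-1 member chr10:126511601-126511820, in an 853.1 kb interval between Lrig3 and Atp23, had 10.4 and 12.7. The best-ranked MEF2 member, chr18:55134001-55134360 and 144.0 kb from Zfp608, ranked lower, with signals of 2.49 in replicate 1 and 5.12 in replicate 2. The others of the 10 lay near Arhgap12, Zfp97, Gm8797, Sfi1 and Cpn2, the last also on the side of Hes1, a Notch target that represses transcription. One of them, near Zfp97, was centred 91 bp from the start of the pseudogene Gm5165.

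The 5 farthest members were uneven. The one at chr1:102628161-102628340, 2140 kb from Cdh20, had a signal of 3.33 with 3 footprints in replicate 1 and of 6.24 with 4 footprints in replicate 2, at percentiles of 92.2 and 97.5. The farthest of all, 2464 kb from Pcdh20, lay in fully masked sequence and had signals of 0.363 and 0.190 with no footprint. The member 1932 kb from Pcdh7 had 0.252 and 0.157, and the one 1884 kb from Tmeff2 had 0.240 and 0.235. The member 2195 kb from Pik3c3 had 0.404 and 0.908. The Cdh20 member was thus the strongest of the 5 in each library.

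A smaller share of members than of near intergenic peaks stood in runs. Neighbours of the same location at most 12500 bp apart were joined, so a single member may lie near a peak of another location. In all, 1159 members (24.2%, 23.0 to 25.4) fell in 286 runs of at least 3, against 34.2% of near intergenic and 34.8% of intron peaks. The share was 23.0% in exon peaks (21.6 to 24.4) and 30.7% in promoters. Far peaks were also sparser, at 5.02 per Mb against 15.1 for near intergenic peaks, and the part of density was not tested. Alone were 2538 members (52.9%). Members in runs had median percentiles of 55.5 in replicate 1 and 88.2 in replicate 2, against 33.5 and 81.7 for single ones. CTCF went the other way, at 1.64% in runs (0.990 to 2.55) and 3.11% in single members (2.47 to 3.86), with overlapping intervals, and the E-box share was 23.8% and 23.6%. The share in runs depends on the join: it was 14.7% at 5 kb and 34.9% at 25 kb, and it was 59.6% among all far peaks of replicate 2.

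The longest run was weak. It held 34 members over 37.5 kb at chr4:3050301-3087840, nearest to the vomeronasal receptor gene Vmn1r2, and lay 0.382 kb from an assembly gap. Its signals were 0.152 to 0.884 in replicate 1 and 0.0729 to 1.28 in replicate 2, 20 of its 34 windows were at least 50% masked, and 12 members had footprints in both libraries. Without it 23.6% of members were in runs. The next runs lay in mostly unmasked DNA. There were 14 members at chr2:30690381-30723540 between Cstad and 1700001O22Rik, with median percentiles of 64.2 in replicate 1 and 91.2 in replicate 2. Another 12 stood at chr2:167823521-167853897 between Cebpb, a bZIP transcription factor gene, and Ptpn1, the gene of a phosphatase that dampens insulin receptor signalling, with 83.7 and 92.4. A further 12 lay at chr17:31905741-31934180 between Sik1, a kinase gene induced by cyclic AMP, and Hsf2bp, with 37.9 and 74.0. This run lay 50.1 kb from Sik1 and 10.7 kb from Hsf2bp. The next place was shared by 5 runs of 9 members, which differed widely. The one at chr4:47577601-47604360, between Sec61b and the nuclear receptor gene Nr4a3, had median percentiles of 72.6 and 94.2, and all 9 members had footprints in both libraries. The run beside Rab11fip4, at chr11:79710881-79740996, had 61.3 and 87.6 with 7 such members, and the one between Arf6 and Vcpkmt, at chr12:69476741-69502994, had 43.0 and 85.0 with 7. The run between Hdac4 and Ndufa10, at chr1:92321681-92348620, had 13.9 and 76.2 with 5. The run between Klf10 and Azin1, at chr15:38456041-38467600, had 10.7 and 35.5 with 4, as weak by these medians as the run near Vmn1r2.

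The members stood in wide intervals. The flanking coding genes were a median of 396.4 kb apart, 1982 members lay between genes more than 500 kb apart and 834 between genes more than 1000 kb apart. Far intergenic DNA was divided among coding genes by nearest start, and 5204 genes had at least 1 kb of it. Of these, 1893 had a member (36.4%), 260 had at least 5 and 49 at least 10. Genes with a member had more such DNA, a median of 127.2 kb against 37.6 kb. Nearest genes had accessible promoters more often: 74.4% of the 1893 had a promoter peak in both libraries (72.3 to 76.3), and 81.2% of the 260 (75.9 to 85.7), against 53.3% of 3311 genes with far DNA but no member and 59.2% of all coding genes. The 5204 genes and all coding genes include those of the Y chromosome, although the animals are labelled female. The part of these genes in the shares was not tested. The nearest gene need not be the one a region acts on.

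After Vmn1r2, the genes nearest to most members were Zfp36l1, Med13l and Maf. Zfp36l1, an RNA-binding protein that promotes mRNA decay, was nearest to 23 members at 122.3 per Mb of its far DNA. Their signals had a lowest, median and highest of 0.170, 0.896 and 2.90 in replicate 1 and 0.247, 1.56 and 5.99 in replicate 2. Med13l, a subunit of the Mediator kinase module, had 22 members (53.1 per Mb), with signals of 0.503, 0.998 and 2.25 in replicate 1 and 0.544, 2.19 and 4.80 in replicate 2. Maf, a bZIP factor of fast muscle fibres, had 19 (29.6 per Mb), 7 of them with an E-box. Bcor, a corepressor, had 18 (38.0 per Mb) and Tbl1xr1, a corepressor subunit, had 17 over 1931 kb (8.81 per Mb). Bod1, Ets1, Gm12728 and Gm26897 had 14 each, and all 14 at Gm26897 had footprints in both libraries. Its members were the strongest of these 10 groups, with medians of 1.46 in replicate 1 and 3.47 in replicate 2. An accessible promoter was seen at 8 of these 10 genes, the exceptions being Vmn1r2 and Gm26897. The share was 81.2% over the 260 genes with at least 5 members, which include these 10.

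**Figure D5:**
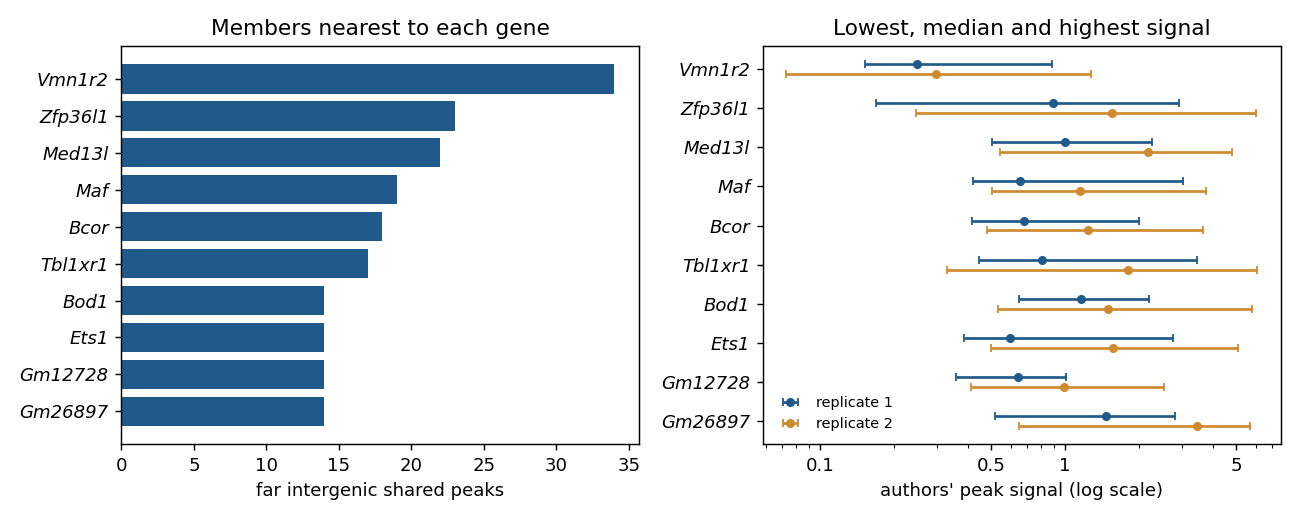
The 10 coding genes nearest to most far intergenic shared peaks: number of members (left) and lowest, median and highest authors' signal of those members in each library (right, log scale). Vmn1r2 has the most members, 34, and the lowest medians, 0.249 in replicate 1 and 0.297 in replicate 2.

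Muscle regulators, transcription factors that build or maintain muscle, were nearest to 88 members. Of 40 on the list, 28 had far DNA and 18 of these had a member (64.3%), against 36.4% of all 5204 genes with far DNA. These 28 genes had more far DNA, a median of 178.7 kb against 62.75 kb over all, and its part in the share was not tested. Pooled, this was 15.6 members per Mb, against 5.01 over all 5204 genes. The median of the 28 genes was 6.04 per Mb, against 0 over all. Members were uneven among the genes: Maf had 19, while the median gene had 1. Runx1, which rises in denervated muscle, had 12 members, 4 of them with AP-1, with signals of 0.398 to 3.16 in replicate 1 and 0.482 to 5.97 in replicate 2. Foxo1, a driver of muscle atrophy programmes, had 11. The strongest of them, at chr3:52601061-52601440 and 332.9 kb from its start, had signals of 6.78 and 11.4 in replicates 1 and 2. The best-ranked E-box members of the 3 genes with most members on this list, with the E-box in capitals, were:
Maf, chr8:115617086-115617235: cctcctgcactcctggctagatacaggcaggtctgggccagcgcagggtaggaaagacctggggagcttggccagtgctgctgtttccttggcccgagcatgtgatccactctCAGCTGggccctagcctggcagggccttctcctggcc
Runx1, chr16:93006741-93006890: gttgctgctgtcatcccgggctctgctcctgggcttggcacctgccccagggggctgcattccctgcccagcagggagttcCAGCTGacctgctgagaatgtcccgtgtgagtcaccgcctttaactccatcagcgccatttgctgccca
Foxo1, chr3:52443951-52444100: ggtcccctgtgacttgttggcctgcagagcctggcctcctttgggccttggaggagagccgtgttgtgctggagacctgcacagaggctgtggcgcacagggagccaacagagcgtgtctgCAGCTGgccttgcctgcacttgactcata
The Runx1 member had signals of 1.73 in replicate 1 and 2.95 in replicate 2, the Foxo1 member 1.53 and 3.79, and the Maf member 0.948 and 1.27. A footprint touched the Foxo1 E-box in replicate 2 only, and neither library had one on the E-box of the Maf or the Runx1 window.

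The order of the lists depended on the measure. The lists also differed in far DNA per gene. Its median was 59.5 kb for fuel use and insulin, 336.1 kb for limb and patterning factors and 1435 kb for neuronal adhesion genes. Genes of fuel use and insulin had a member at 9 of 10 genes with far DNA, against 36.4% of all such genes, and 22 members in all. Their pooled density of 11.3 per Mb was below that of muscle regulators, while their median per gene, 22.4 per Mb, was above. The list was led by Irs2, an insulin receptor substrate, with 7, Ppargc1a, a coactivator of mitochondrial genes, with 4, and Ppp1r3a, a glycogen-targeting phosphatase subunit, with 3. The best Irs2 member, at chr8:11089381-11089620, had signals of 4.93 in replicate 1 and 11.6 in replicate 2. Limb and patterning factors had 31 members at 10 of 15 genes (66.7%; 5.77 per Mb pooled, median 3.45), led by Meis1 with 8, Sox9 with 7 and Bmp2 with 5. Sarcomere and calcium handling genes had almost no far DNA: 2 of 25 had any, and each, Dmd and Tpm1, had 1 member (2.78 per Mb pooled, median 19.3). The Tpm1 member had signals of 1.76 and 3.27 in replicates 1 and 2, the Dmd member 0.275 and 0.280. Neuronal adhesion genes, which flank very gene-poor DNA, had 23 members at 11 of 19 genes (57.9%; 0.742 per Mb pooled, median 0.454). Pcdh7 led with 6, of which 4 were at least 50% masked, then Pcdh17 with 3, and 2 each at Cdh10, Cdh8 and Csmd3.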

How the data were processed

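The 2 libraries had peak lists on mm10, per the labels. Each peak carries the authors' deposited signal, of unstated scale, used only within a list or as a percentile of it. Of 2 lists per library the longer was used. Footprints are the authors' calls, whose deposited p-value was 0.01 throughout. Deposited segments of the cut rate serve the closing part, and no cut on their p-value, read as a false discovery rate, was applied. The sources used here name neither caller nor depth.

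Overlapping or touching shared peaks were merged, and the midpoint was the mean of the midpoints of each library's strongest peak. Genes came from GENCODE M21 and sequence and repeat masking from RefSeq GRCm38. Coding starts were those of protein-coding transcripts of protein-coding genes. Exact Clopper-Pearson intervals were at 95%. One of the 16 motifs is not reported here. The functions were tested on simulated data. Tools were pandas 2.3.3, scipy 1.17.1 and numpy 2.4.6 under Python 3.11.15.

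Named are the 10 members of best mean rank, the 5 farthest, the longest runs (4 and the 5 tied for the next place), the best member with each of 4 motifs, the 10 genes nearest to most members, and the 3 genes with most members per list (5 lists). The printed MEF2 member, the best E-box members at 3 genes, Cdh10, Cdh8, Csmd3, and the X and Y chromosomes were chosen after values were seen. The members, lists, motifs and alternatives were chosen with earlier results of these data known.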

Additional observations from a re-analysis of the deposited data

Results flagged for a closer look

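The cut-rate segments, which no result above uses, touched some far intergenic peaks that the other library did not list. Of 2363 far peaks of replicate 1 that overlapped no peak of replicate 2, 10.3% held a segment of replicate 2 (9.09 to 11.6), against 4.13% when the same intervals were moved by 5 kb (3.58 to 4.73). Of 42219 far peaks of replicate 2 that overlapped no peak of replicate 1, 1.56% held a segment of replicate 1 (1.45 to 1.69), against 0.778% after the move (0.720 to 0.840). Near intergenic peaks went the other way: 10.4% of those listed in replicate 1 alone held a segment of replicate 2, against 11.9% after the move, and 2.08% of those listed in replicate 2 alone held one of replicate 1, against 4.005%. The shares at far peaks were thus not above those at near peaks, and the moved intervals differed by location.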

How the results depend on the processing

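Of 84 alternative values for 8 results, 70 moved by less than 1 SD between the libraries' own values, an SD that is wide where the lists differ in length. The far intergenic share of 9.75% was 14.3% at 25 kb, 5.61% at 100 kb, 7.28% with the shorter lists and 9.11% with the starts of all transcripts of coding genes. The CTCF share of 2.46% became 3.15% at 25 kb. In windows of 300 bp the E-box share of 23.9% became 34.8% and the AP-1 share of 10.4% became 16.9%. The mean of the libraries' median percentiles, 62.8, was 80.1 in the stronger part of each list. The CTCF footprint ratio of 4.77 was 5.21 with a move of 30 bp. Leaving out a library, which turns every far peak of the other into a member, gave a far share of 10.8% to 18.2%, CTCF 0.753% to 1.66%, E-box 13.6% to 19.9%, AP-1 5.62% to 8.62%, footprints in both libraries 7.66% to 48.4%, median percentile 28.2 to 36.5, share in runs 35.6% to 59.6%, and CTCF ratio 4.73 to 4.81. Without windows at least 50% masked, chosen after the data were seen, the CTCF share was 2.63%, the E-box share 24.7% and the footprint share 79.2%. The causes of these shifts were not tested. No paired analysis was possible because there is 1 group and no contrast. Unknown depth limits every count, and the far shorter list of replicate 1 limits which peaks can be shared.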
